A study of Mus musculus with 6 samples.

Results

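The interferon-stimulated genes and interferon regulatory factors (IRFs) described here are 42 genes chosen by name, of the 54232 Ensembl genes counted in mouse liver by RNA sequencing. All 42 were matched by their current symbol, and all had enough counts to be tested, with a mean per library between 47.3 counts (Mx1) and 5770.3 counts (Iigp1). The DKO group of the labels combined the null allele of FXR, the nuclear bile acid receptor, with liver-specific deletion of Xbp1 (Fxr-/-Xbp1LKO), and the SKO group, against which it was set, lacked FXR and carried intact floxed Xbp1 (Fxr-/-Xbp1fl/fl). XBP1 drives transcription when unfolded protein builds up in the endoplasmic reticulum. Both groups were chow-fed C57BL/6 males aged 8 to 10 weeks with 3 libraries each, so FXR was absent throughout and no change can be read against wild-type liver. The labels do not name what drove the Xbp1 deletion, nor whether a library was 1 animal or a pool. The p-values therefore measure the spread between these libraries, which may be partly technical.

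Interferons are secreted by infected or stimulated cells and act through cell-surface receptors and JAK kinases. Type I and III interferons activate ISGF3, a complex that includes STAT2 and IRF9 and binds the interferon-stimulated response element (ISRE) in target promoters, and interferon gamma acts through the gamma-activated site (GAS). The products restrict viruses and intracellular microbes, sense foreign RNA and DNA, and shut the response down again. In liver, hepatocytes, Kupffer cells and endothelial cells all respond to interferon.

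Total counts were 16966422 to 21107674 per library, at which the 3 counts that a gene with 0 counts may still have correspond to 0.126 to 0.191 CPM (the unit used throughout, counts scaled by the library total and its TMM factor). This limit covers counting error only. Xbp1 stood at 77.1 ± 16.3 CPM in DKO and 247 ± 18.9 CPM in SKO (mean ± SD, n = 3 each), with no overlap, and Nr1h4, which encodes FXR, was counted at 97.4 ± 3.35 CPM in DKO and 98.6 ± 5.94 CPM in SKO. The labels do not say which part of Nr1h4 the null allele lacks, so that value does not check the FXR genotype. The hepatocyte marker Alb was abundant in each library, between 31392 and 41509.9 CPM in DKO and between 53112 and 75575 CPM in SKO.

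Promoters of the members were searched for the ISRE and the GAS. The members were chosen as genes of the interferon response, so a high share with these elements was likely from the choice itself. RefSeq promoter windows in GRCm38.p6, the assembly of mm10, run from 250 bases before to 50 bases after each gene's start and were found for 32 members in 37 windows. The ISRE core was searched as GAAA, any 2 bases and GAAA, and the GAS core as TTC, any 3 bases and GAA, both on either strand, and overlapping matches of either kind were kept. The ISRE core was present in 19 of the 37 windows (51.4%), against 3.44% of all 32851 promoter windows, and the GAS core in 11 (29.7%), against 8.30% of all windows. Windows of near-copies were counted separately. These matches describe letters in a window and do not show that a factor was bound. Oas3, Rsad2 and Irf2 are the members that changed between the genotypes and held an ISRE core. Each is shown 5′ to 3′ on its own strand for the 250 bases before its start, with ISRE and GAS cores in capitals: Oas3 at chr5:120777660-120777909 on the minus strand, Rsad2 at chr12:26456453-26456702 on the minus strand, and Irf2 at chr8:46739495-46739744 on the plus strand.
Oas3: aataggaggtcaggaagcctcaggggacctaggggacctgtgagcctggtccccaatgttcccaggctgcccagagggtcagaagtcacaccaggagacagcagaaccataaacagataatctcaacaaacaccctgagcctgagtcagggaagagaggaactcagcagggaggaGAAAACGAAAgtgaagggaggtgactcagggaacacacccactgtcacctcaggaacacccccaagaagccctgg
Rsad2: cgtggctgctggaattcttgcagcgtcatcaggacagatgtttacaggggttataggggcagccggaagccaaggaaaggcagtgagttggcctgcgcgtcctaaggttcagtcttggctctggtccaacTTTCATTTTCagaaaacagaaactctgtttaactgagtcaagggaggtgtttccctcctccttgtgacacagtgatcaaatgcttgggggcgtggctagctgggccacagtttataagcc
Irf2: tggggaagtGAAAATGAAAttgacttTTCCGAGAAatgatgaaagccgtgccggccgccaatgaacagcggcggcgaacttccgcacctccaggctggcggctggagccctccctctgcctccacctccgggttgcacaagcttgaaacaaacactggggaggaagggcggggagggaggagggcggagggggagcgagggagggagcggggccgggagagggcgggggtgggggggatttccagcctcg
Counted from the start as -1 backwards, the core of Oas3 began at position -75, that of Rsad2, which lies on the opposite strand and so reads TTTC first, at -120, and that of Irf2 at -241. The GAS core of Irf2 began at -224. Dtx3l, the other called member with a window, had neither core in its window, and Iigp1, Parp9, Parp14, Oas2, Usp18, Mx1, Mx2, Ifi27, Dhx58 and Zbp1 had no window.

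Shorter stretches are shown for members whose cores were repeated or whose near-copies bear on how reads were assigned. Isg15 (chr4:156200847-156200916, minus strand) held 3 overlapping ISRE cores in a row, and Oas1a (chr5:120907526-120907595, minus strand) held 2.
Isg15: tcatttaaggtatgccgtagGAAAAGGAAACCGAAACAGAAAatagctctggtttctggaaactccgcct
Oas1a: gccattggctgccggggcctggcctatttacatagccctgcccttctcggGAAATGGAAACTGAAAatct
Igtp (chr11:58199486-58199555) and Irgm2 (chr11:58214877-58214946), neighbours on the plus strand of chromosome 11, carried a GAS core followed after 2 bases by an ISRE core, in stretches identical at 68 of 70 bases.
Igtp: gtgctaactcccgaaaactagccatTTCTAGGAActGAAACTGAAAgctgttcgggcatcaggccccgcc
Irgm2: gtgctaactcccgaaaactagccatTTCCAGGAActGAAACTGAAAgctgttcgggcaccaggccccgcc
Ifit3 (chr19:34583353-34583442) and Ifit3b (chr19:34607749-34607838), both on the plus strand of chromosome 19, were identical at all 90 bases shown, each with 2 ISRE cores on the opposite strand.
Ifit3: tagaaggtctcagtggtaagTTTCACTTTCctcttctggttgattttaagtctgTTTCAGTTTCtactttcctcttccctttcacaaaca
Ifit3b: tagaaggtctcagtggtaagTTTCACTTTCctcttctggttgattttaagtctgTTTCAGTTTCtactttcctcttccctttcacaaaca
The same likeness extends into the transcripts. Of the 50-base stretches of Ifit3 transcripts, 51.2% also occur in Ifit3b, and 57.6% of those of Oas1a also occur in Oas1g, so the split of reads within these pairs is uncertain. For Igtp, 11.8% are shared with Irgm2, and the annotated spans of those genes overlap on the same strand. Dtx3l and Parp9 overlap at their starts, on opposite strands, over 682 bases, and Irf5 overlaps Tnpo3 over 1045 bases, and whether counting used the strand was not stated in the sources used here.

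Oas3 and Rsad2, which encode antiviral enzymes, rose in DKO. Iigp1, an interferon-inducible GTPase, Dtx3l, a ubiquitin ligase subunit, and Irf2, a transcription factor, fell. The other 37 members did not pass the test (edgeR quasi-likelihood, Benjamini-Hochberg adjusted p under 0.05 over 13986 genes). The 2 that rose are 4.76% of the members, against 10.3% of all genes tested, and the 3 that fell are 7.14%, against 9.7%. Together 5 of 42 were called (11.9%), against 20% of all genes. The median log2 fold change of the 42 was 0.11, against 0.0059 over all genes tested, with 27 members above 0 and 15 below. None reached a 2-fold difference in this fit, with log2 values from -0.43 (Iigp1) to 0.89 (Usp18). Scaled by library totals alone, Usp18 and Oas3 reached log2 1.10 and 1.04, and without SKO replicate 3 log2 1.07 and 1.04. Usp18 also reached log2 1.10 without DKO replicate 1. All 3 DKO libraries lay above all 3 SKO libraries for 7 members (16.7%, against 20.2% of all genes tested), and below them for 4 (9.52%, against 19.4%). At an unadjusted p under 0.05 there were 10 higher members (23.8%, against 18% of all genes) and 4 lower (9.52%, against 16.5%). Scaling by library totals alone shifted the median of all genes tested by 0.22 on the log2 scale. It turned the member counts to 13 higher and 0 lower of 42, with 0 lower also at an unadjusted p under 0.05. The counts over all genes turned the same way, from 1446 higher and 1357 lower to 3859 higher and 538 lower of 13986. The fall of Iigp1, Dtx3l and Irf2 is thus relative to the median gene. The calls also changed when single libraries were left out. These fits have fewer samples, the counts over all genes moved in them too, as given below, and the cause was not tested. With SKO replicate 1 left out, edgeR called 0 members higher (4 at an unadjusted p under 0.05) and 3 lower. Leaving out SKO replicate 2 gave 0 higher (4 at an unadjusted p under 0.05) and 1 lower, and leaving out DKO replicate 3 gave 0 higher (5 at an unadjusted p under 0.05) and 2 lower. Leaving out SKO replicate 3 gave 4 higher and 0 lower (3 at an unadjusted p under 0.05). A single member each way was called without DKO replicate 1, namely Usp18 higher and Iigp1 lower, and 5 higher and 3 lower without DKO replicate 2. With all 6 libraries DESeq2 called 5 higher and 3 lower, beside 1394 and 1351 over all genes. Limma-voom called 3 higher and 3 lower, beside 1284 and 1281 over all genes.

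**Figure D1:**
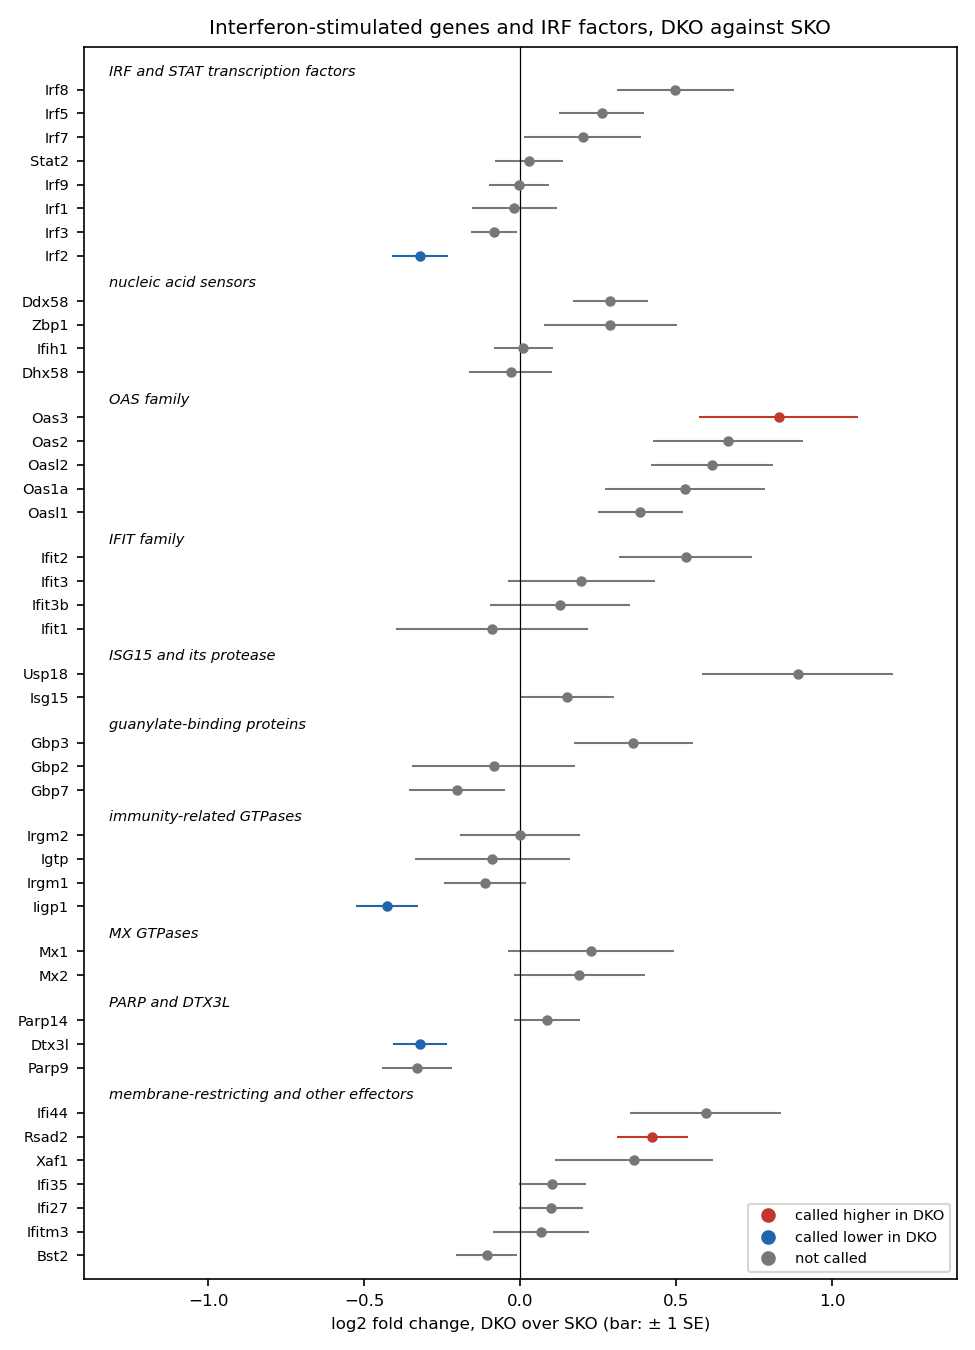
Log2 fold change of each of the 42 members, DKO over SKO, from the edgeR fit (x axis), grouped by family and ordered by size within it (y axis); bars are ± 1 SE. All 5 OAS and OAS-like genes lie right of 0, the immunity-related GTPases lie at or left of it (with total-count scaling, Irgm1, Irgm2 and Igtp lie right of it), and only the 5 coloured genes were called.

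These are bulk samples, so more cells of a type and more RNA per cell cannot be told apart. Markers of other cell types moved with genotype, and the counts below stand beside 10.3% of all genes tested called higher and 9.7% called lower. Of 10 Kupffer cell and macrophage markers 3 were called higher (8 by DESeq2) and none lower, namely Cd68 (log2 1.05 ± 0.17), Marco (log2 1.16 ± 0.19) and Adgre1 (log2 0.72 ± 0.16), with 0 lower at an unadjusted p under 0.05 and by DESeq2 and limma-voom. Their summed level was 681 to 994 CPM in DKO and 549 to 677 CPM in SKO. Of 10 monocyte and dendritic cell markers 5 were higher (3 by DESeq2, 2 by limma-voom), led by Cx3cr1 (log2 2.38 ± 0.38), Itgax (log2 2.0 ± 0.33) and Ccr2 (log2 1.03 ± 0.31), with sums of 21.7 to 32.5 CPM in DKO and 10.3 to 13.2 CPM in SKO. Stellate cell and fibroblast markers summed to 574 to 839 CPM in DKO and 340.4 to 403 CPM in SKO, with 5 of 8 higher, and cholangiocyte markers to 121 to 199.7 CPM in DKO and 61.2 to 74.0 CPM in SKO, with 3 of 6 higher. Hepatocyte markers summed to 53904 to 66371 CPM in DKO and 83227 to 110493 CPM in SKO, with 5 of 8 lower, namely Alb, Apoa1, Apob, Ttr and Serpina1a. Log2 values were above 0 for 2 of the 8 hepatocyte markers, up to 0.59, and Tat was called higher without DKO replicate 1. Leaving out single libraries gave 2 to 7 calls for Kupffer cells, 2 to 5 for monocytes, 1 to 5 for stellate cells, 1 to 3 for cholangiocytes and 1 to 4 falls for hepatocytes, each list at its lowest number without SKO replicate 2, some also without others. By the smallest p, the leading genes were the stellate genes Dcn, Col3a1 and Pdgfrb (log2 0.69 ± 0.10, log2 1.47 ± 0.30 and log2 0.83 ± 0.21), the cholangiocyte genes Spp1, Epcam and Krt19 (log2 1.27 ± 0.20, log2 1.24 ± 0.28 and log2 1.26 ± 0.31) and the hepatocyte genes Serpina1a, Alb and Apoa1 (log2 -0.60 ± 0.12, log2 -0.89 ± 0.19 and log2 -0.78 ± 0.18). None of the 7 T and NK cell, 6 B cell, 3 neutrophil and 8 endothelial markers tested was called by edgeR, DESeq2 or limma-voom, while at an unadjusted edgeR p under 0.05 there were 1, 0, 1 and 0 higher and 0, 0, 0 and 1 lower. The most expressed of these were Cd4 and Nkg7 (log2 0.87 ± 0.30 and log2 0.27 ± 0.33), the B cell marker Cd79b (log2 0.36 ± 0.30), Csf3r and S100a9 (log2 0.71 ± 0.28 and log2 0.32 ± 0.46), and Stab2 and Stab1 (log2 -0.05 ± 0.07 and log2 0.09 ± 0.08). Median log2 values of the 4 lists, in the same order, were 0.67, 0.25, 0.32 and -0.05, with 7, 5, 3 and 3 markers above 0. In the fits without a library, edgeR called Cd4 and Cd8a higher without SKO replicate 3 and Csf3r higher without DKO replicate 2, and none lower. With total counts, where 3859 of all genes were called higher, edgeR called Cd4, Csf3r, Stab1 and Cdh5 higher. Without the filter on low counts it called Csf3r higher. The neutrophil marker Ly6g had 0 counts in DKO and 1 count in SKO, and no other listed marker was at 0 in all libraries of a group but Mpo, at 0 in SKO. The part of these cell types in the member values was not tested.

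Among the transcription factors, 1 of 8 was called, against 20% of all genes tested. Irf2 (ENSMUSG00000031627, chromosome 8, 46739732 to 46847458 in mm10), which acts mainly as a repressor at the elements that IRF1 activates, stood at 61.6, 68.0 and 64.3 CPM in DKO, against 70.5, 88.4 and 83.4 CPM in SKO. Every DKO library lay below every SKO library, and the gene fell (log2 -0.32 ± 0.09, edgeR adjusted p = 0.0318). The call ended on leaving out any library except SKO replicate 1 or DKO replicate 2, with edgeR adjusted p reaching 0.13, and under upper-quartile and total-count scaling (log2 -0.26 and -0.10).

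Stat2 and Irf9, which encode subunits of ISGF3, did not pass the test. Stat2, the ISGF3 subunit that carries the activation domain, stood at 66.6, 72.9 and 77.4 CPM in DKO, against 67.1, 62.2 and 83.3 CPM in SKO (log2 0.03 ± 0.11, edgeR adjusted p = 0.883). Irf9, its DNA-binding subunit, stood at 37.8, 42.1 and 46.2 CPM in DKO, against 41.8, 38.5 and 46.1 CPM in SKO (log2 -0.0037 ± 0.10, edgeR adjusted p = 0.983). The ranges of both genes overlapped.

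The IRFs that induce interferon were not called either. Irf3, which is present before infection and is activated by phosphorylation, stood at 63.7, 74.1 and 69.3 CPM in DKO, against 71.1, 73.8 and 74.4 CPM in SKO (log2 -0.08 ± 0.07, edgeR adjusted p = 0.468). Irf7, itself interferon-induced and the amplifier of interferon alpha production, stood at 52.5, 47.2 and 63.0 CPM in DKO, against 55.1, 34.7 and 52.1 CPM in SKO (log2 0.20 ± 0.19, edgeR adjusted p = 0.509), with SKO replicate 2 as its lowest library. Irf1, which responds to interferon gamma and drives antigen presentation genes, stood at 54.3, 36.7 and 40.3 CPM in DKO, against 46.7, 44.7 and 41.9 CPM in SKO (log2 -0.02 ± 0.14, edgeR adjusted p = 0.937), with its highest value in DKO replicate 1. All 3 overlapped between groups.

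Irf5 and Irf8 are IRFs of myeloid cells. Irf8, needed for monocyte and dendritic cell development, stood at 19.2, 12.2 and 13.4 CPM in DKO, against 9.48, 9.71 and 12.6 CPM in SKO (log2 0.50 ± 0.19, edgeR adjusted p = 0.0965). DKO replicate 1 was the highest library, and DKO replicate 2 lay below SKO replicate 3. Irf5, which acts downstream of Toll-like receptors in macrophages, stood at 24.0, 17.9 and 20.5 CPM in DKO, against 14.4, 18.5 and 19.1 CPM in SKO (log2 0.26 ± 0.14, edgeR adjusted p = 0.205), again highest in DKO replicate 1 and overlapping. DKO replicate 1 was also the library with the highest monocyte and dendritic cell marker sum, at 32.5 CPM. It was highest too for the Kupffer cell, T and NK cell, B cell, neutrophil, stellate cell and cholangiocyte marker sums. The endothelial and hepatocyte sums were highest in SKO libraries. The part of any of these cell types in the Irf5 and Irf8 values was not tested.

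None of the 4 nucleic acid sensors was called, and the groups overlapped for each. Ifih1, which encodes the double-stranded RNA sensor MDA5, stood at 46.6, 49.6 and 57.5 CPM in DKO, against 48.7, 48.3 and 55.5 CPM in SKO (log2 0.01 ± 0.09, edgeR adjusted p = 0.952). Ddx58, also named Rigi, the sensor of short RNA with a triphosphate end, stood at 36.2, 38.6 and 45.2 CPM in DKO, against 27.9, 32.7 and 37.4 CPM in SKO (log2 0.29 ± 0.12, edgeR adjusted p = 0.119). It was higher in mean in DKO, but DKO replicate 1 lay below SKO replicate 3. Dhx58, the regulator LGP2, stood at 9.71, 10.3 and 11.6 CPM in DKO, against 10.7, 9.16 and 12.3 CPM in SKO (log2 -0.03 ± 0.13, edgeR adjusted p = 0.896), and Zbp1, a sensor of left-handed nucleic acid, at 8.28, 6.70 and 10.2 CPM in DKO, against 7.31, 4.94 and 8.34 CPM in SKO (log2 0.29 ± 0.21, edgeR adjusted p = 0.381). Zbp1 was lowest in SKO replicate 2 and highest in DKO replicate 3.

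OAS enzymes make 2′-5′ oligoadenylates when they bind double-stranded RNA, which activate RNase L. All 5 OAS and OAS-like genes among the members had positive log2 fold changes, as did 50.9% of all genes tested. Their median was 0.61, and 1 of the 5 was called, against 20% of all genes tested. Oas3 (ENSMUSG00000032661, chromosome 5, 120753098 to 120777661) stood at 4.37, 3.76 and 5.35 CPM in DKO, against 2.73, 1.65 and 3.21 CPM in SKO. Its DKO libraries all lay above its SKO libraries, and it rose (log2 0.83 ± 0.25, edgeR adjusted p = 0.0449). It was the member with the lowest level per length, at a mean of 1.41 TPM, a level per transcript length, over the 6 libraries, and its call ended on leaving out any library but SKO replicate 3 or DKO replicate 2, with edgeR adjusted p reaching 0.147.

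The other OAS and OAS-like genes came close to the threshold or missed it. Oas2 stood at 9.42, 6.06 and 10.2 CPM in DKO, against 6.17, 3.84 and 6.20 CPM in SKO (log2 0.67 ± 0.24, edgeR adjusted p = 0.0829), where DKO replicate 2 lay within the SKO range. Oasl2, an OAS-like protein with ubiquitin-like domains, stood at 16.1, 14.2 and 17.5 CPM in DKO, against 9.03, 8.12 and 14.03 CPM in SKO (log2 0.61 ± 0.19, edgeR adjusted p = 0.0564) with no overlap. Oasl1, which in mouse restrains translation of Irf7, stood at 18.1, 17.2 and 20.3 CPM in DKO, against 11.3, 14.4 and 16.7 CPM in SKO (log2 0.38 ± 0.14, edgeR adjusted p = 0.0743), also with no overlap. Oas1a stood at 4.37, 3.23 and 5.87 CPM in DKO, against 3.31, 2.36 and 3.66 CPM in SKO (log2 0.53 ± 0.25, edgeR adjusted p = 0.173), with overlap and with the read sharing given above. DESeq2 called Oas2 and Oasl2 beside Oas3, and limma-voom called Oasl2 and Oas3. For Oas1a, Oas2 and Oas3, replicate 2 was the lowest library of DKO and also of SKO.

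Rsad2 (ENSMUSG00000020641, chromosome 12, 26442746 to 26456452), which encodes the antiviral radical SAM enzyme viperin, was the other member that rose. It stood at 17.1, 15.7 and 18.5 CPM in DKO, against 12.2, 11.5 and 14.5 CPM in SKO. The groups did not overlap (log2 0.42 ± 0.11, edgeR adjusted p = 0.028), and a 1.34-fold difference separated the fitted means. The call ended on leaving out any library but SKO replicate 3 or DKO replicate 2, with edgeR adjusted p reaching 0.117, while its log2 value ranged over 0.35 to 0.52.

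Usp18 had the highest log2 value among the members and was not called by edgeR, while DESeq2 called it higher. It encodes the protease that removes ISG15 from proteins and also blocks the type I interferon receptor. It stood at 17.7, 23.9 and 34.8 CPM in DKO, against 14.3, 9.93 and 16.96 CPM in SKO. No DKO library overlapped SKO, but the DKO values spanned a wider range than the difference between the means (log2 0.89 ± 0.31, edgeR adjusted p = 0.0974). DKO replicate 3 was the highest, and without it the log2 value was 0.60. Isg15, the ubiquitin-like modifier that USP18 removes, stood at 7.10, 8.11 and 9.55 CPM in DKO, against 7.50, 6.64 and 8.11 CPM in SKO (log2 0.15 ± 0.15, edgeR adjusted p = 0.516), with overlap.

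The IFIT genes, which bind foreign or unmethylated RNA ends and sit together on chromosome 19, did not pass the test. Ifit2 had the largest difference, at 9.25, 8.02 and 14.3 CPM in DKO, against 7.82, 6.31 and 7.66 CPM in SKO (log2 0.53 ± 0.21, edgeR adjusted p = 0.114), with no overlap and with DKO replicate 3 well above the rest. Ifit1 stood at 6.43, 8.94 and 13.5 CPM in DKO, against 7.12, 10.7 and 12.6 CPM in SKO (log2 -0.09 ± 0.31, edgeR adjusted p = 0.87). Ifit3 stood at 5.04, 7.18 and 8.62 CPM in DKO, against 4.64, 5.71 and 7.72 CPM in SKO (log2 0.20 ± 0.24, edgeR adjusted p = 0.606). Ifit1 and Ifit3 overlapped widely, as did Ifit3b (log2 0.13 ± 0.22, edgeR adjusted p = 0.732), which lay between 2.09 and 3.37 CPM in all libraries.

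**Figure D2:**
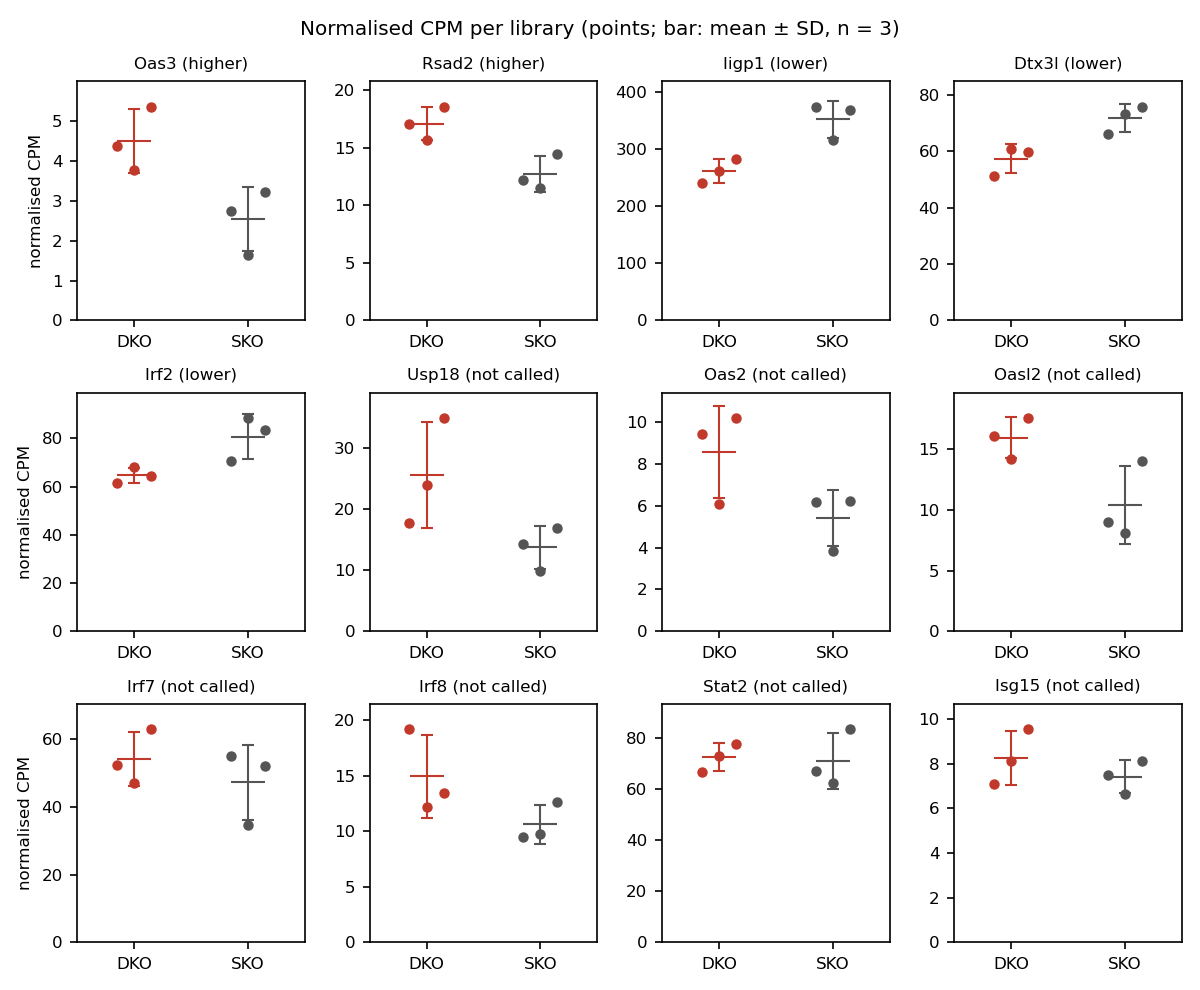
Normalised CPM (y axis, linear from 0) in each DKO and SKO library for 12 members, with the mean ± SD (n = 3); the panel titles give the edgeR call. The groups do not overlap for Oas3, Rsad2, Iigp1, Dtx3l, Irf2, Usp18 and Oasl2, and overlap for the other 5.

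Immunity-related GTPases (IRGs) coat and break vacuoles of intracellular parasites and are induced mainly by interferon gamma. All 4 IRG log2 fold changes were below 0 here (3 of them above 0 with total counts), from -0.43 to -0.00019. Of the 4, 1 was called, against 20% of all genes tested. Iigp1 (ENSMUSG00000054072, chromosome 18, 60376027 to 60392634), also known as Irga6, an effector IRG, stood at 240.0, 262 and 283 CPM in DKO, against 373, 315 and 367 CPM in SKO. Every DKO library lay below every SKO library, and the gene fell (log2 -0.43 ± 0.10, edgeR adjusted p = 0.0151), which is 1.35-fold lower in DKO. It held its call in 5 of the 6 fits without a library, losing it without SKO replicate 3 (adjusted p = 0.0578), and its log2 value was -0.21 with total counts, where it was not called. It was the third most expressed member per length (143 TPM), after Ifitm3 and Bst2.

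The regulatory IRGs were not called. Irgm1, which keeps effector IRGs off the cell's own membranes, stood at 50.3, 63.9 and 69.8 CPM in DKO, against 72.6, 57.1 and 69.3 CPM in SKO (log2 -0.11 ± 0.13, edgeR adjusted p = 0.594). Igtp stood at 24.4, 29.0 and 37.6 CPM in DKO, against 36.3, 22.2 and 38.3 CPM in SKO (log2 -0.09 ± 0.25, edgeR adjusted p = 0.836) and Irgm2 at 52.3, 68.1 and 74.2 CPM in DKO, against 53.7, 58.5 and 82.0 CPM in SKO (log2 -0.00019 ± 0.19, edgeR adjusted p = 1). Their groups overlapped, and for both genes SKO replicate 3 was the highest library. Under total-count scaling the log2 values of Irgm1, Igtp and Irgm2 were 0.10, 0.12 and 0.21, so the sign of these 3 does not hold there.

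Guanylate-binding proteins, large GTPases that attack pathogen vacuoles, had log2 values on both sides of 0, all 3 above it with total counts. Gbp3 stood at 10.6, 10.7 and 13.1 CPM in DKO, against 10.2, 6.20 and 10.3 CPM in SKO (log2 0.36 ± 0.19, edgeR adjusted p = 0.215), without overlap. Gbp2 stood at 10.5, 7.97 and 10.4 CPM in DKO, against 12.1, 6.09 and 12.5 CPM in SKO (log2 -0.09 ± 0.26, edgeR adjusted p = 0.852) and Gbp7 at 11.0, 11.6 and 15.4 CPM in DKO, against 15.2, 12.1 and 16.2 CPM in SKO (log2 -0.20 ± 0.15, edgeR adjusted p = 0.392), both with overlap. SKO replicate 2 was the lowest library for all 3 GBP genes within SKO, and none was called. The dynamin-like MX GTPases were low, with Mx2 between 4.37 and 7.37 CPM and Mx1 between 1.53 and 3.11 CPM over all libraries, and were not called (log2 0.19 ± 0.21, edgeR adjusted p = 0.568 and log2 0.23 ± 0.27, edgeR adjusted p = 0.592). C57BL/6 mice are known to carry a deletion in Mx1 that removes its function.

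Dtx3l and Parp9 form a ubiquitin ligase complex that modifies histones, and are transcribed from neighbouring starts on chromosome 16. Dtx3l (ENSMUSG00000049502, chromosome 16, 35926511 to 35939151) stood at 51.4, 60.9 and 59.8 CPM in DKO, against 66.1, 73.3 and 75.7 CPM in SKO. It fell, with no overlap between groups (log2 -0.32 ± 0.09, edgeR adjusted p = 0.0271). Parp9 (chromosome 16, 35938470 to 35972605) stood at 42.1, 50.1 and 56.1 CPM in DKO, against 57.0, 60.4 and 68.9 CPM in SKO. Its groups did not overlap either, but it missed the threshold (log2 -0.33 ± 0.11, edgeR adjusted p = 0.0642). Parp14, an interferon-induced ADP-ribosyltransferase nearby on the same chromosome, did not follow them, at 45.2, 51.2 and 59.5 CPM in DKO, against 47.5, 45.5 and 53.7 CPM in SKO (log2 0.09 ± 0.11, edgeR adjusted p = 0.612). The call for Dtx3l ended under upper-quartile and total-count scaling (log2 -0.26 and -0.11) and on leaving out any library but SKO replicate 1 or DKO replicate 2, with edgeR adjusted p reaching 0.0959.

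None of the remaining 6 effectors was called. Ifitm3, a membrane protein that blocks viral entry, was the most expressed member per length at 1216 TPM, and stood at 272, 317 and 327 CPM in DKO, against 222, 313 and 341 CPM in SKO (log2 0.07 ± 0.15, edgeR adjusted p = 0.803). Bst2, which encodes tetherin, a protein that holds budding virions at the cell surface, stood at 106, 98.5 and 114 CPM in DKO, against 130.0, 111 and 102 CPM in SKO (log2 -0.11 ± 0.10, edgeR adjusted p = 0.481). Both overlapped between groups. Ifi44 stood at 5.51, 5.86 and 8.67 CPM in DKO, against 4.07, 3.35 and 5.80 CPM in SKO (log2 0.59 ± 0.24, edgeR adjusted p = 0.116), with DKO replicate 1 below SKO replicate 3. Xaf1, a pro-apoptotic factor, stood at 7.10, 6.79 and 11.7 CPM in DKO, against 5.53, 5.65 and 8.57 CPM in SKO (log2 0.37 ± 0.25, edgeR adjusted p = 0.351). Ifi27 stood at 55.3, 58.8 and 65.5 CPM in DKO, against 62.5, 57.2 and 48.0 CPM in SKO (log2 0.10 ± 0.10, edgeR adjusted p = 0.537) and Ifi35 at 22.3, 21.1 and 26.5 CPM in DKO, against 21.1, 20.4 and 23.6 CPM in SKO (log2 0.10 ± 0.11, edgeR adjusted p = 0.542). Both overlapped between groups.

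Within each genotype, the members varied together from library to library. DKO replicate 3 was the highest DKO library for 35 of 42 members (83.3%), against 29.2% of all genes tested, and the lowest for none. DKO replicate 1 was the lowest DKO library for 25 members (59.5%, against 36.5% of all genes). SKO replicate 3 was the highest SKO library for 32 members (76.2%, against 33.3% of all genes), and SKO replicate 2 the lowest for 24 (57.1%, against 32.0%). The mean member level, as log2(CPM + 1) less each gene's average across libraries, was -0.03, -0.02 and 0.26 in DKO and -0.10, -0.21 and 0.10 in SKO. By that measure SKO replicate 3 stood above DKO replicates 1 and 2. Replicate numbers only name libraries and pair none across genotypes. The Kupffer cell and macrophage markers summed to 994, 681 and 898 CPM in DKO and 677, 549 and 623 CPM in SKO. Endothelial markers summed to 472, 465 and 497 CPM in DKO and 505, 492 and 484 CPM in SKO. For hepatocyte markers the sums were 53904, 55507 and 66371 CPM in DKO and 98952.5, 110493 and 83227 CPM in SKO. The part of cell content in how the members varied between libraries was not tested.

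**Figure D3:**
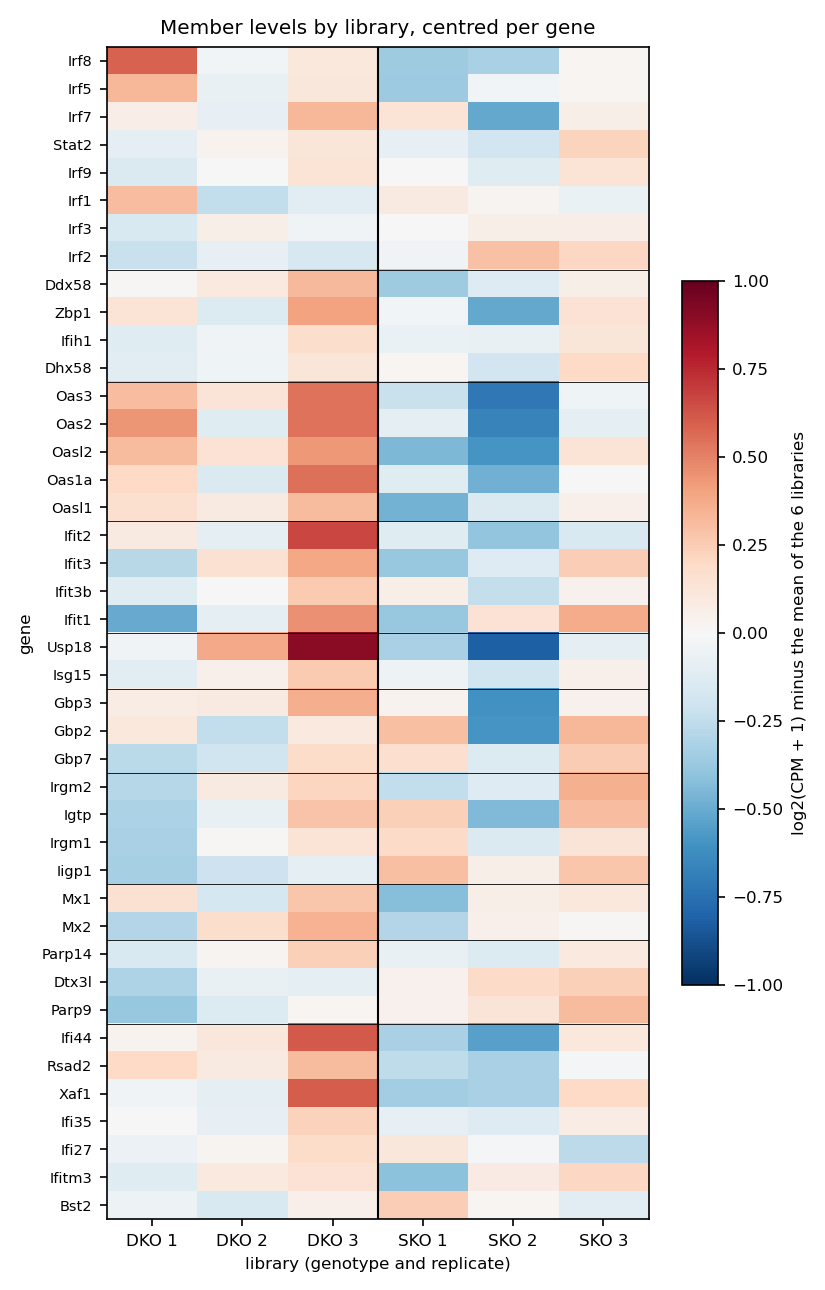
Level of each member (rows, grouped by family) in each library (columns, DKO then SKO) as log2(CPM + 1) minus its mean over the 6 libraries; red is higher and blue lower, and lines separate the families. DKO replicate 3 is the reddest DKO column, highest for 35 of 42 members, and SKO replicate 2 is the bluest SKO column, lowest for 24.

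The interferon genes themselves were at or under the counting limit. Of 21 interferon genes, 18 had no count in any library, and Ifng, Ifnk and Ifnz had at most 2 counts in a library, so none was tested. With 0 counts, up to 0.126 to 0.156 CPM in DKO libraries and 0.165 to 0.191 CPM in SKO libraries remain possible. Of 14 tested receptor and JAK-STAT genes, 1 was called, against 20% of all genes tested. It was Il10rb, a subunit shared by the receptors for interferon lambda and interleukin 10. It stood at 14.97, 10.4 and 12.3 CPM in DKO, against 8.71, 8.07 and 8.85 CPM in SKO (log2 0.56 ± 0.14, edgeR adjusted p = 0.0232), held its call only without SKO replicate 1 or DKO replicate 2, and DESeq2 also called Ifngr1. No gene of this list was called lower by edgeR, DESeq2 or limma-voom, with 1 at an unadjusted p under 0.05. Ifnar1, the signalling chain of the type I receptor, which was looked up after its value was seen, stood at 49.1, 43.4 and 48.3 CPM in DKO, against 58.1, 54.3 and 53.2 CPM in SKO (log2 -0.23 ± 0.07, edgeR adjusted p = 0.0509).

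Of 22 tested genes of nucleic acid sensing, 3 were called higher and 1 lower, and this share is near the 20% called over all genes. Ikbke, a kinase that phosphorylates IRF3 and IRF7, fell to 15.1, 11.3 and 14.1 CPM in DKO, against 25.1, 23.3 and 26.9 CPM in SKO (log2 -0.89 ± 0.12, edgeR adjusted p = 0.000941), and kept its call in each of the 6 fits without a library. Unc93b1, which escorts Toll-like receptors to endosomes, rose and kept its call in each of these fits too, at 79.8, 71.3 and 76.1 CPM in DKO, against 58.3, 56.3 and 61.4 CPM in SKO (log2 0.37 ± 0.07, edgeR adjusted p = 0.00709). Tlr7, the endosomal sensor of single-stranded RNA, rose, at 7.65, 5.77 and 7.94 CPM in DKO, against 4.83, 3.73 and 4.45 CPM in SKO (log2 0.72 ± 0.18, edgeR adjusted p = 0.0196), and lost its call without DKO replicate 3, SKO replicate 2 or SKO replicate 3. Tlr8 was the other gene called higher (log2 0.93 ± 0.28, edgeR adjusted p = 0.0434), and its call held in 2 of the 6 fits. The myeloid marker sums given above moved in the same direction as the 3 rises. So did the stellate cell, cholangiocyte and T and NK cell sums, and the part of these cell types was not tested.

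Of 69 tested interferon-stimulated genes outside the members, 10 rose (14.5%, against 10.3% of all genes) and none fell (against 9.7%). None fell at an unadjusted edgeR p under 0.05 either (against 16.5% of all genes). DESeq2 and limma-voom called 0 lower, with 1 lower by DESeq2 at an unadjusted p under 0.05. At an unadjusted edgeR p under 0.05, 4 were lower without SKO replicate 2 and 1 without DKO replicate 1. The median log2 fold change of the 69 was 0.19. Ifi27l2b, a paralog of Ifi27 in the same cluster on chromosome 12, rose to 14.1, 6.94 and 9.97 CPM in DKO, against 3.63, 1.76 and 2.42 CPM in SKO (log2 2.01 ± 0.33, edgeR adjusted p = 0.00544), beside 0.89 for Usp18, the member with the highest log2 value. Ifi30, a lysosomal thiol reductase of antigen processing, stood at 34.6, 26.2 and 29.7 CPM in DKO, against 21.9, 20.96 and 21.2 CPM in SKO (log2 0.50 ± 0.11, edgeR adjusted p = 0.0101). Samd9l, an antiviral growth suppressor, stood at 26.1, 23.1 and 29.6 CPM in DKO, against 18.1, 18.2 and 19.9 CPM in SKO (log2 0.49 ± 0.11, edgeR adjusted p = 0.0108). The groups did not overlap for these 3, which kept their calls in each of the 6 fits without a library. Of the whole list, 3 genes were called higher without SKO replicate 2 or DKO replicate 3, 5 without SKO replicate 3, 6 without SKO replicate 1 or DKO replicate 1, and 13 without DKO replicate 2.

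**Figure D4:**
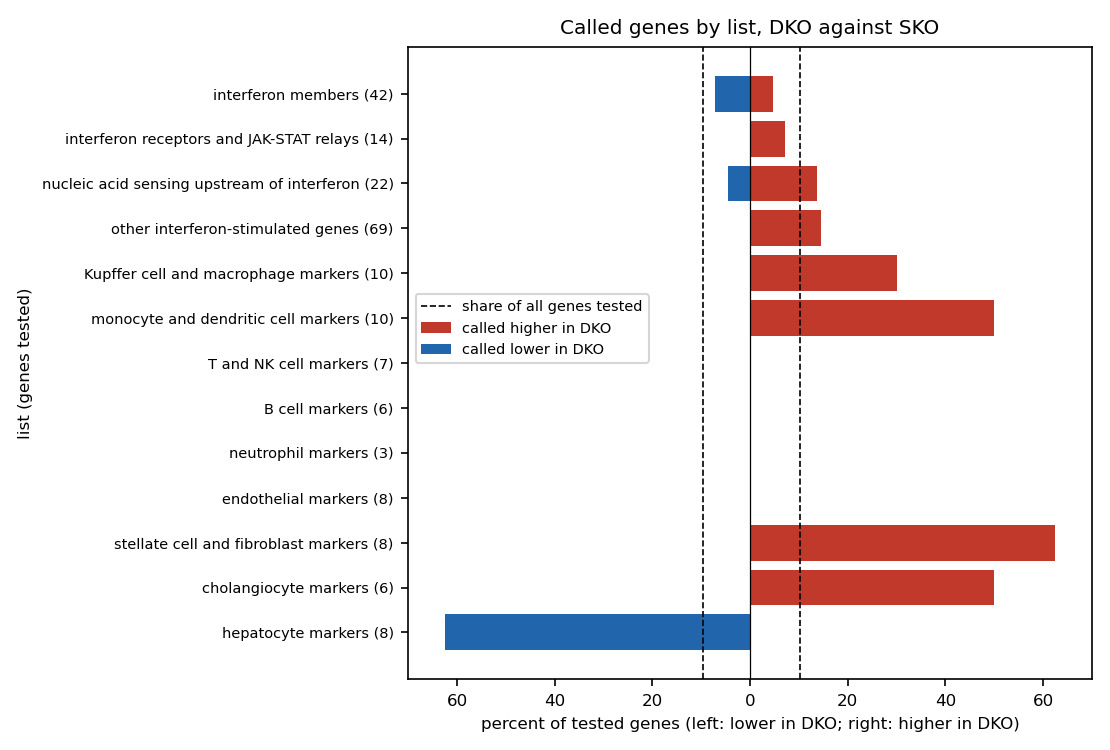
Percent of the tested genes of each list called higher (right) or lower (left) in DKO by edgeR (x axis), with the number tested in brackets (y axis); dashed lines mark the shares of all genes tested, 10.3% higher and 9.7% lower. The members lie inside both lines, while the nucleic acid sensing genes, the other interferon-stimulated genes and the myeloid, stellate cell, cholangiocyte and hepatocyte markers reach beyond one of them.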

How the data were processed

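Liver RNA of 3 DKO and 3 SKO libraries was measured. Per the labels it was extracted with Trizol, and each deposited file gives raw counts of reads per Ensembl gene as the authors made them. Tools named in the submitters' processing notes are cutadapt 1.13, STAR, HTSeq 0.6.1p1 and DESeq2, with build mm10. Their settings, strand use and annotation release are not stated, and reads shared by near-identical or overlapping genes may be dropped or divided. GENCODE M21 gave symbols and coordinates (54165 of 54232 identifiers matched).

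After filterByExpr, edgeR 4.0.16 in R 4.3.3 (TMM, robust glmQLFit, glmQLFTest) compared DKO with SKO, with Benjamini-Hochberg adjustment over 13986 genes and calls under 0.05. The SE is the size of the log2 fold change divided by the square root of F. The fit was tested on simulated data with known changes. TPM used exonic lengths. Alternatives were DESeq2 1.42.0, limma-voom (limma 3.58.1), upper-quartile factors, total counts, no filter, and leaving out each library. Members and 13 further gene lists were chosen with earlier results of these data known. All 42 members are accounted for. From each other list the 3 called genes with the smallest p are named, or, where there are none, the 2 most expressed, and others where stated, and some of the genes so chosen are not reported here. Groups follow the genotype label. Replicate numbers follow accession order and only name libraries. The titles of 4 libraries, 3 of DKO and 1 of SKO, hold 2 numbers that the labels leave unexplained.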

Additional observations from a re-analysis of the deposited data

How the results depend on the processing

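The median of the members kept its sign in each alternative tried, at 0.33 with total counts, where the median of all genes was 0.23, and at 0.02 to 0.20 on leaving out each library in turn. Counts of called members moved more. Higher members numbered 5 with DESeq2, 4 with upper-quartile factors, 13 with total counts and 9 without a filter, and 0 to 5 without each library. Lower members numbered 4 without a filter, 1 with upper-quartile factors, 0 with total counts by edgeR (0 at an unadjusted p under 0.05) and 0 to 3 without each library. DESeq2 was run only with its size factors and limma-voom only with TMM, and each called 3 lower. Over all genes, DESeq2 gave 1394 higher and 1351 lower, and limma-voom 1284 higher and 1281 lower. Upper-quartile factors gave 1856 higher and 987 lower over all genes, and no filter 1962 higher and 1647 lower. Total counts gave 3859 higher and 538 lower over all genes, and leaving out a library gave 674 to 1569 higher and 745 to 1200 lower. Total counts carry the shift of all genes by construction, the left-out fits have fewer samples, and otherwise the cause was not tested. Interferon-stimulated genes outside the members called higher numbered 27 with total counts and 16 without a filter, beside 3859 and 1962 over all genes. The sign changed only for members that were not called. With total counts the log2 values were 0.12 for Ifit1, 0.21 for Irf1, 0.13 for Irf3, 0.21 for Irf9, 0.18 for Dhx58, 0.11 for Bst2, 0.13 for Gbp2, 0.011 for Gbp7, 0.12 for Igtp, 0.099 for Irgm1, 0.21 for Irgm2, with upper-quartile factors 0.044 for Irf1, 0.057 for Irf9, 0.031 for Dhx58, 0.061 for Irgm2, and with limma-voom 0.0099 for Irgm2. Without each library in turn they were -0.21 to 0.091 for Irf1, -0.065 to 0.16 for Stat2, -0.082 to 0.077 for Ifih1, -0.36 to 0.083 for Gbp2, -0.31 to 0.053 for Igtp, -0.100 to 0.19 for Ifitm3, -0.030 to 0.24 for Ifit3b, -0.41 to 0.14 for Ifit1, -0.077 to 0.068 for Irf9, -0.00053 to 0.18 for Ifi27, -0.14 to 0.078 for Dhx58, -0.12 to 0.21 for Irgm2, -0.22 to 0.012 for Irgm1, -0.023 to 0.18 for Parp14. No paired analysis was possible because the labels give no replicate numbers that tie libraries of the groups. Depth limits the interferon genes, whose counts lay at or under the limit that a count of 0 allows.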

Other observations

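Of 5 genes examined from the Ifi200 cluster on chromosome 1, whose PYHIN proteins bind DNA or regulate transcription, 2 were called higher in DKO, beside 10.3% of all genes tested. Of these, Ifi204 rose, at 18.4, 16.2 and 17.5 CPM in DKO, against 13.04, 10.3 and 14.3 CPM in SKO (log2 0.47 ± 0.13, edgeR adjusted p = 0.0265), as did Ifi207, at 14.3, 17.9 and 22.1 CPM in DKO, against 12.1, 9.66 and 13.3 CPM in SKO (log2 0.63 ± 0.17, edgeR adjusted p = 0.0345), each without overlap. Ifi209 (log2 0.71 ± 0.23, edgeR adjusted p = 0.0573), Ifi203 (log2 0.18 ± 0.12, edgeR adjusted p = 0.303) and Ifi205 (log2 0.39 ± 0.42, edgeR adjusted p = 0.557) were not called. The calls for Ifi204 and Ifi207 held in 3 and 1 of the 6 fits without a library. These genes, like those below, were picked after their values were seen.

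In the OAS cluster on chromosome 5, Oas1g rose, at 1.85, 1.66 and 2.96 CPM in DKO, against 1.02, 0.439 and 1.18 CPM in SKO (log2 1.29 ± 0.37, edgeR adjusted p = 0.0363), and held its call in 2 of the 6 fits without a library. Oas1c stood at 1.18, 1.52 and 1.56 CPM in DKO, against 1.14, 0.988 and 0.789 CPM in SKO (log2 0.54 ± 0.28, edgeR adjusted p = 0.199) and Oas1b at 1.81, 2.59 and 2.96 CPM in DKO, against 2.16, 1.65 and 2.76 CPM in SKO (log2 0.16 ± 0.27, edgeR adjusted p = 0.728). Of genes that interferon gamma induces, the antigen processing genes Psmb9 (log2 -0.03 ± 0.12, edgeR adjusted p = 0.9) and Tap1 (log2 0.03 ± 0.13, edgeR adjusted p = 0.911) and the chemokine gene Cxcl9 (log2 0.06 ± 0.22, edgeR adjusted p = 0.884) were not called.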
